A study of Mus musculus with 4 samples.

Results

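The transcripts described here are the immunoglobulin chains and the joining (J) chain that a mouse expression array measures under the gene names Igh-VJ558, Ighg, Ighm, Igkc, Igj, Vpreb1 and Vpreb3. They were found by gene name in the scanner files, with Igh-6 and Igk-C taken as the older names of Ighm and Igkc. All probes of a name were kept, which gave 7 genes of 31829 gene names on the array, measured by 8 of its 39429 probes that were not controls. The tested cells were splenocytes of female C57BL/6 mice aged 8 weeks, cultured for 72 h with 10 µM imatinib (2 arrays). The control cells were the same kind of splenocytes cultured for 72 h without imatinib (2 arrays). The conditioning medium of both groups contained interleukin-4 (IL-4) and lipopolysaccharide (LPS), so both agents were present throughout. Imatinib is a kinase inhibitor, and the study's declared interest was its effect on antibody class switching. The cultures were whole splenocytes, in which B cells lie among T cells and myeloid cells. Whether the 2 samples in each group were independent mice or cultures is not stated in the labels, so p-values may measure only technical spread.

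An antibody is built from paired heavy and light chains. Its heavy chain variable region is joined first to the mu constant region, giving IgM, and class switching later moves the same variable region to a downstream constant region. In mouse B cells, LPS with IL-4 is a standard way to drive switching towards IgG1 and IgE. The J chain, encoded by Igj (now Jchain), links IgM or IgA units into polymers and is made in antibody-secreting cells. Vpreb1 pairs with lambda-5 to form the surrogate light chain of precursor B cells, and Vpreb3 is a related protein of the B lineage that binds immunoglobulin chains inside the cell.

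The probes were first set against the descriptions in the files, because several gene names did not match their target. The only probe named Igh-VJ558, a name for a family of heavy chain variable segments, is described as the constant segment IGHE, the heavy chain of IgE. Both Ighg probes are described as a transcript similar to the gamma 2A chain. The probe named Igh-6 is described only as an expressed sequence tag, and the one named Igk-C as a cDNA clone from bone. Neither description names an immunoglobulin chain, so these 2 probes are given below by name with that limit. The descriptions of the Igj, Vpreb1 and Vpreb3 probes match their names.

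The sequences of the probes on which the heavy chain results turn are shown here, together with other array probes whose description names the same genes. Each runs 5′ to 3′ as deposited, over 60 bases. Capitals mark a TAG stop codon that closes an open reading frame at the last 3 bases of the probe.
Igh-VJ558 (described as IGHE), A_55_P1960152: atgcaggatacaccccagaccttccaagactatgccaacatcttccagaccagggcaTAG
Ighg, A_55_P2066173: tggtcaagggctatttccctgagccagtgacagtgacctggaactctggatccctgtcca
Ighg, A_55_P2021089: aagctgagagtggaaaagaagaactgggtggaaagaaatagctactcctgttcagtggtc
described as IGHG3, A_55_P2118876: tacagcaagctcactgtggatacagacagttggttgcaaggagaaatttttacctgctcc
described as Ighg, A_55_P2021084: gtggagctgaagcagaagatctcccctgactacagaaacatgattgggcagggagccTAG
described as Igh-VJ558, A_55_P1985209: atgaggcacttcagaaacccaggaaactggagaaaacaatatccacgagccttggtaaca
described as Igh-VJ558, A_51_P509679: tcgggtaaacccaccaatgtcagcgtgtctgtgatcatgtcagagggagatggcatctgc
described as Igh-VJ558, A_55_P1960148: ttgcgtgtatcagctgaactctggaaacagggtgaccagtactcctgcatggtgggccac

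Whether the member probes could cross-hybridise was examined by comparing them with every other probe on the array, on both strands. Only the Vpreb3 probe shared an exact run of at least 15 bases with another probe, and none of its partners was an immunoglobulin probe. Among 167 other immunoglobulin probes, 124 shared such a run. Without gaps and over at least 40 bases, the nearest immunoglobulin match of a member was between Ighg A_55_P2021089 and the IGHG1 probe, at 31 of 44 bases (70.5%). The Igh-VJ558 probe came nearest to the IGHV11-2 probe, at 26 of 42 bases (61.9%). No member probe held a repeat of a 2-base or 3-base unit longer than 6 bases. These comparisons are between probes on the array. They do not cover the rest of a transcript outside its probe, or transcripts for which the array has no probe. Cross-hybridisation of the member probes with such sequence was therefore not tested.

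Values below are normalised log2 signals, that is, log2 of the processed fluorescence minus the log2 75th percentile of the array, so that 0 is the signal at that percentile. A probe counted as changed at a Benjamini-Hochberg adjusted p under 0.05 in limma, fitted across 25373 tested probes and two-sided. Of the 8 member probes, 7 were tested: 1 rose, 3 fell and 3 did not pass, so 57.1% were called. Over all tested probes 42.4% were called, 18.7% higher and 23.7% lower with imatinib, and the members' share is to be read against that. Those shares were 4737 probes higher and 6016 lower, and the split turned further downwards with median centring (3305 higher, 9251 lower) and on the spike-in scale (2802 higher, 11738 lower). Without imatinib replicate 1 the counts were 2496 and 1704, without imatinib replicate 2 they were 2377 and 1751, and without control replicate 2 they were 3503 and 3947. Imatinib and control values did not overlap for 5 of 7 tested member probes, against 73.4% of all tested probes. Several members thus moved on an array in which nearly as large a share of all probes did. In RNA from mixed cells, fewer cells of a type and less RNA per cell cannot be told apart.

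**Figure D1:**
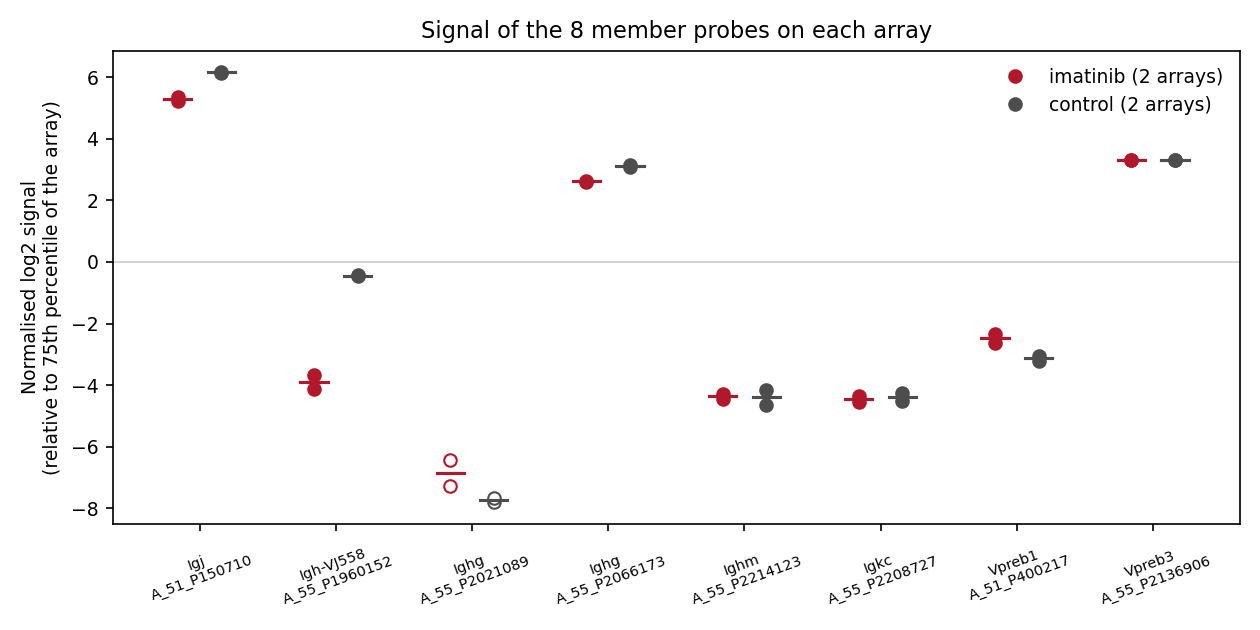
Normalised log2 signal (vertical axis, 0 at the array's 75th percentile) of the 8 member probes on each of the 4 arrays, imatinib in red and control in grey, with lines at group means and open circles where a probe was not well above background. Igh-VJ558 lies at -3.68 and -4.13 with imatinib and at -0.46 and -0.44 in control, the widest gap among the members.

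The transcript with the largest difference among the members was the one detected by the Igh-VJ558 probe described as IGHE, the constant region of IgE. Which forms of that transcript this probe detects was not tested. Its normalised log2 signals were -3.68 and -4.13 on the imatinib arrays, against -0.46 and -0.44 on the control arrays. Both imatinib arrays lay far below both control arrays. Before scaling, the processed signals were 50.5 and 36.0 with imatinib, against 494 and 577 in control, and all were well above background. The means were -3.90 ± 0.32 with imatinib and -0.45 ± 0.013 in control (SD, n = 2 each). The log2 difference was -3.46 (SE 0.17, limma adjusted p = 0.0012), a control signal 11.0 times that with imatinib. Only 4 of the 25373 tested probes had a lower difference. With another background correction (normexp, offset 50), which lifts dim signals, the difference was -2.19, and it passed in all 14 alternative settings.

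Among the gamma chain probes, Ighg A_55_P2066173 fell modestly. It is described as similar to the gamma 2A chain, but which gamma chain transcripts it detects was not tested. Its normalised log2 signals were 2.60 and 2.64 with imatinib, against 3.07 and 3.15 in control. The groups did not overlap, and the spread within each was small next to the gap. The means were 2.62 ± 0.030 with imatinib and 3.11 ± 0.053 in control (SD, n = 2 each), a difference of -0.49 (SE 0.064, limma adjusted p = 0.0088). The call was lost without imatinib replicate 1, where the difference was -0.47 (adjusted p = 0.063), and without imatinib replicate 2, where it was -0.52 (adjusted p = 0.057). The other Ighg probe, A_55_P2021089, was not well above background on any array, with processed signals of 4.22 and 7.21 under imatinib and 3.05 and 3.90 in control. It was not tested, so the 2 probes of this name cannot be set against each other.

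The J chain transcript was among the brighter signals on the arrays and fell with imatinib. Igj had normalised log2 signals of 5.35 and 5.21 on the imatinib arrays, against 6.16 and 6.14 on the control arrays. The lower control array lay above the higher imatinib array. Unscaled processed signals were 26403 and 23295 with imatinib, against 48437 and 55287 in control, where only 955 tested probes were brighter. The means were 5.28 ± 0.099 with imatinib and 6.15 ± 0.011 in control (SD, n = 2 each). The log2 difference was -0.87 (SE 0.075, limma adjusted p = 0.0040, 95% interval -1.08 to -0.66), a control signal 1.83 times that with imatinib. It passed in all 14 alternative settings, between -1.14 and -0.80.

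The surrogate light chain gene Vpreb1 was the member that rose. Its normalised log2 signals were -2.63 and -2.33 with imatinib, against -3.05 and -3.21 in control. The groups did not overlap, but the level was low, with processed signals of 104 and 125 under imatinib and 82.0 and 84.8 in control. The means were -2.48 ± 0.22 with imatinib and -3.13 ± 0.11 in control (SD, n = 2 each), a difference of 0.65 (SE 0.13, limma adjusted p = 0.025). The direction held in all 14 alternatives, between 0.38 and 0.80, but the call held in 9. It was lost without the filter on dim probes (adjusted p = 0.084), and with the replicate number as a block (adjusted p = 0.058). It was lost too without imatinib replicate 2 (0.49, adjusted p = 0.076), without control replicate 1 (0.73, adjusted p = 0.059) and without control replicate 2 (0.57, adjusted p = 0.096).

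Vpreb3 did not pass the test. Its normalised log2 signals were 3.31 and 3.31 with imatinib, against 3.32 and 3.31 in control, values that lie closer together than those of any other member. The difference was -0.01 (SE 0.056, limma adjusted p = 0.93), with a 95% interval of -0.16 to 0.15. The difference depended on the scaling: on the spike-in scale it was -0.27 and passed (adjusted p = 0.044), where the median of all tested probes was itself -0.28. Its difference lay close to that of the median probe on both scales.

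The probes named Igh-6 and Igk-C were dim and did not pass. Igh-6 (Ighm) had normalised log2 signals of -4.44 and -4.29 with imatinib, against -4.16 and -4.63 in control, so that the control arrays enclosed the imatinib arrays. Its difference was 0.03 (SE 0.18, limma adjusted p = 0.91, 95% interval -0.48 to 0.54). Igk-C (Igkc) had -4.53 and -4.35 with imatinib, against -4.25 and -4.51 in control, with overlapping groups. Its difference was -0.06 (SE 0.13, limma adjusted p = 0.73, 95% interval -0.41 to 0.29), or -0.33 with adjusted p = 0.040 on the spike-in scale. Processed signals of both probes lay between 27.9 and 37.9 on the 4 arrays, and 20281 (Igh-6) and 20234 (Igk-C) of the tested probes were brighter than them in control.

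**Figure D2:**
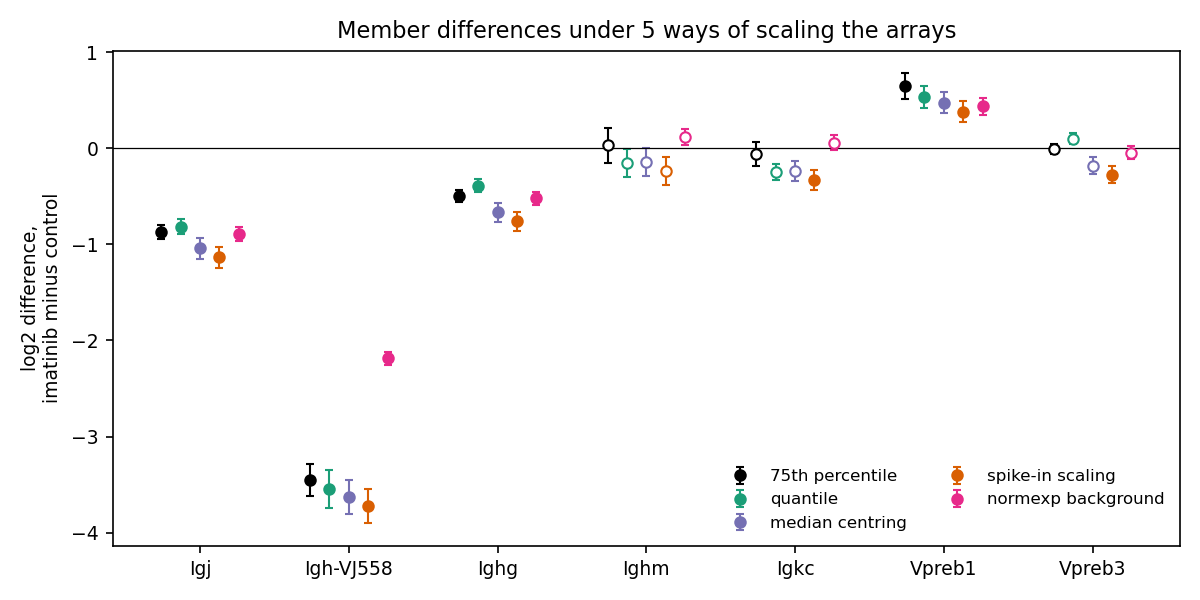
Log2 difference, imatinib minus control (vertical axis, ± SE), of the 7 tested member probes under 5 ways of scaling or background-correcting the arrays, with filled circles at an adjusted p under 0.05. Igh-VJ558, Igj and Ighg lie below 0 and Vpreb1 above 0 under all 5, while Igkc and Vpreb3 pass only on the spike-in scale.

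For comparison with the IGHE result, the heavy chain constant segments were read from probes that carry their names only in the description. These probes, except that of IGHG3, were chosen after their values were seen. They are given in the order in which the genes follow each other along the locus. IGHD and IGHG3 rose, while IGHG2C and the segment IGHE fell. IGHM, the IgM constant region, had signals of 8.34 and 8.31 with imatinib, against 8.32 and 8.29 in control, and did not pass (0.02, SE 0.058, adjusted p = 0.81). IGHD, of IgD, rose to 0.78 and 0.74 with imatinib, against -0.48 and -0.53 in control (difference 1.26, SE 0.060, limma adjusted p = 0.0012). IGHG3 rose to 3.59 and 3.61 with imatinib, against 2.22 and 2.24 in control (difference 1.37, SE 0.057, limma adjusted p = 0.00098).

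IGHG1, a main product of IL-4 with LPS, had 5.23 and 5.32 with imatinib, against 5.49 and 5.55 in control. Its groups did not overlap, but the difference of -0.24 (SE 0.068) missed the threshold (limma adjusted p = 0.056), and it passed in 5 of 14 alternatives. IGHG2C fell to 0.55 and 0.58 with imatinib, against 1.24 and 1.19 in control (difference -0.65, SE 0.060, limma adjusted p = 0.0046). The Igh-VJ558 probe described as IGHE, last of these probes in this order, fell by 3.46, as given above. The locus also holds Ighg2b, between Ighg1 and Ighg2c, and Igha, after Ighe, and these probes do not include either. The fall of the Igh-VJ558 probe is therefore set among segments of the same locus that rose, fell or did not pass. The IGHM probe was bright, with processed signals between 199357 and 245638, and the probe named Igh-6 was dim.

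**Figure D3:**
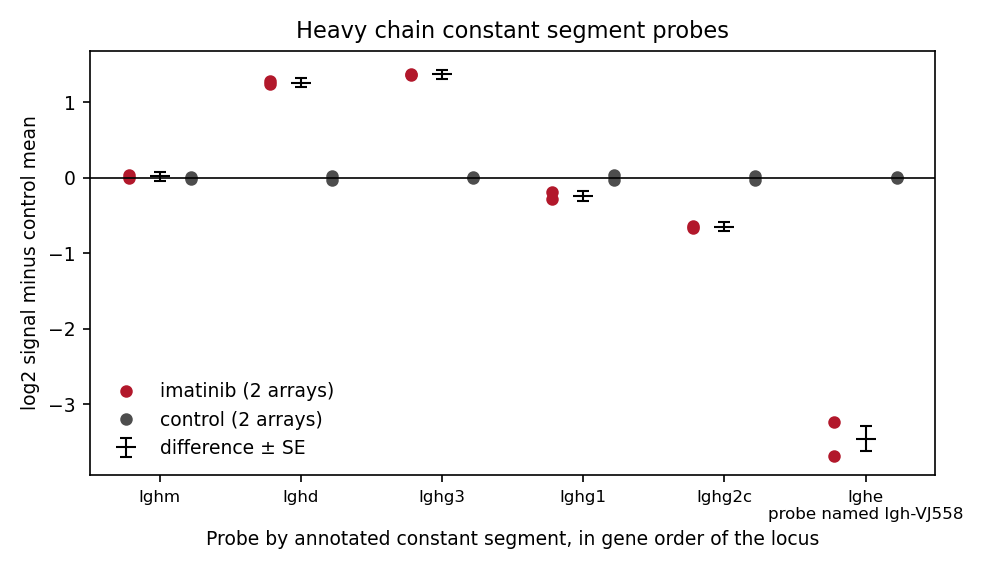
Normalised log2 signal minus the control mean (vertical axis) for probes of 6 heavy chain constant segments in gene order, with imatinib arrays in red, control arrays in grey and the difference ± SE in black. Ighd and Ighg3 lie 1.26 and 1.37 above the control mean, and the probe named Igh-VJ558 (Ighe) lies 3.46 below it.

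Probes that share a description with the members did not all move alike. A_55_P1985209, described as Igh-VJ558, had 1.14 and 1.11 with imatinib, against 4.02 and 3.91 in control, a difference of -2.84. A_51_P509679, whose description names the same predicted transcript, had 1.46 and 1.54 with imatinib, against -0.24 and -0.34 in control, a difference of 1.79. Another probe described as Igh-VJ558, A_55_P1960148, had 0.49 and 0.61 with imatinib, against -1.06 and -1.17 in control, a difference of 1.66. The description Igh-VJ558 therefore covers probes of opposite direction. Which constant or variable segment each one detects is not given by the descriptions, and the printed sequences were not compared with transcripts. A_55_P2021084, described as Ighg, was dim, at -5.15 and -5.27 with imatinib against -3.06 and -3.13 in control. Its difference of -2.12 shrank to -0.64 with normexp. All 4 passed in limma and in all 14 alternatives.

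Across the 158 other immunoglobulin probes that were tested, 21 rose, 56 fell and 81 did not pass, so 48.7% were called, against 42.4% of all tested probes. Their groups did not overlap for 128 of the 158, where 73.4% of all tested probes did not overlap. Fits without 1 array have fewer residual degrees of freedom, and the counts of rises and falls were lower in each. They moved with the scaling too, to 13 higher and 77 lower with median centring and 10 higher and 92 lower on the spike-in scale, and 32 rose with trend and robust variance fitting. Of 52 heavy chain variable segment probes, 10 rose and 27 fell, with a median difference of -0.24 and a range of -1.33 to 1.27. The lowest of these, IGHV3-3, differed by -1.33, or by -0.32 with normexp. Of 71 kappa variable probes, 4 rose and 17 fell, with a median of -0.03 and a range of -0.70 to 1.25. All 4 lambda constant probes were bright, with processed signals of 143881 to 250213, and 2 of them rose, by 0.27 and 0.28, while the other two did not pass (0.09 and 0.24). The median over all tested probes was -0.01. Many variable segment probes share sequence runs, so they are not independent of each other.

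**Figure D4:**
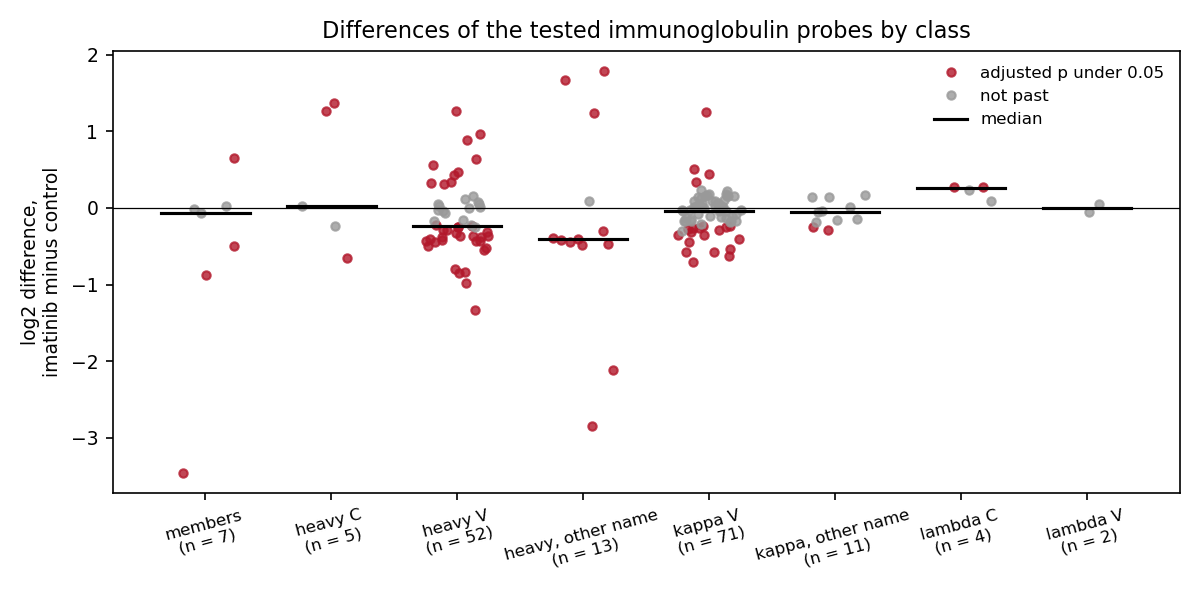
Log2 difference, imatinib minus control (vertical axis), of each tested immunoglobulin probe by class, red at an adjusted p under 0.05 and grey otherwise, with black lines at class medians. The kappa variable probes have a median of -0.03, and the 7 members range from -3.46 to 0.65.

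Vpreb1 was also read beside its near copy Vpreb2, which lies on the same chromosome. The Vpreb2 probe had signals of -1.59 and -1.32 with imatinib, against -4.33 and -4.60 in control. Its difference was 3.01 (SE 0.15, limma adjusted p = 0.0012), and 1.69 with normexp. The Vpreb1 probe shares no run of 15 bases with it, but the promoter windows of the 2 genes match at 153 of 156 aligned bases (98.1%). How far each probe detects the transcript of the other gene was not tested. Of the other partners of the surrogate light chain, Igll1, encoding lambda-5, was not analysed here, and the receptor signalling chains Cd79a and Cd79b did not pass (-0.07 and -0.02). Rag1 and Rag2, which open the recombination of both heavy and light chain genes, were not well above background on both arrays of either group.

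Since Igj fell and Vpreb1 rose, the 250 bases before the start of each gene are shown (RefSeq, GRCm38.p6, gene strand, 5′ to 3′). Capitals mark the E-box CANNTG, the motif read by E proteins such as the product of Tcf3 and the same on both strands.
Jchain, chr5:88527898-88528147, minus strand: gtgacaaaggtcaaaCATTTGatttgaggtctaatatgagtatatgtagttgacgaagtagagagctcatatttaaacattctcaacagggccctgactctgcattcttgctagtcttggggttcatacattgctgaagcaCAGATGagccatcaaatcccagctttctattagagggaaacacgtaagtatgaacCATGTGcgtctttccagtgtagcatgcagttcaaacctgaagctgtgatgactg
Vpreb1, chr16:16869256-16869505, minus strand: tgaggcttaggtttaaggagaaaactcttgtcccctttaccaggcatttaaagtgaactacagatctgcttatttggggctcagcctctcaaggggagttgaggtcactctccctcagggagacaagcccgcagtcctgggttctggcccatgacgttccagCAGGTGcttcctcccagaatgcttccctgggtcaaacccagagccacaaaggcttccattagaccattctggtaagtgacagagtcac

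The Jchain window held 3 copies of CANNTG and the Vpreb1 window 1, which reads CAGGTG. The Vpreb3 window held 5 copies, of which some overlap, and 1 octamer ATGCAAAT on the opposite strand, the motif of the Oct factors. That window (chr10:75948050-75948299, plus strand) lies within the annotated span of the gene, 75943024 to 75949657, and not before it. Of 27025 mouse promoter windows of the same length, 66.0% held CANNTG, 17.1% held CAGGTG and 1.61% held ATGCAAAT, counted on both strands. A match of these letters is a description and not a binding site.

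Genes around immunoglobulin expression were read from the same fit, with the brightest probe for each gene. Of 27 regulators of immunoglobulin genes, 9 rose and 8 fell, with a median of 0.12, against 18.7% higher and 23.7% lower among all tested probes. That balance depended on the scaling: 3 rose and 10 fell with median centring (median -0.06), and 2 rose and 12 fell on the spike-in scale (median -0.15). Without imatinib replicate 1, 2 rose and 3 fell, and without imatinib replicate 2, 3 rose and 4 fell, and without either control array 4 rose. Id2, an inhibitor of E proteins, rose by 2.14 (SE 0.073, limma adjusted p = 0.00077), and Id3, of the same family, fell by 1.05 (SE 0.082, limma adjusted p = 0.0033). Bcl6, the germinal centre repressor, fell by 0.94, and Pou2f2, which encodes the octamer factor Oct-2, fell by 0.79. Of 22 genes of class switch recombination and the repair of its breaks, 2 rose and 16 fell, with a median of -0.29; without either imatinib array 1 rose and 3 fell, and without either control array 5 fell. One of the rises, Ung, was read from a probe that holds a repeat of a 2-base or 3-base unit over 34 bases, so its target is uncertain. Among them Apex1, an abasic site nuclease, fell by 0.88, and the exonuclease gene Exo1 fell by 0.77.

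Of 29 tested genes that fold, assemble and export antibody chains in the endoplasmic reticulum, none rose and 19 fell, with a median of -0.39, where 23.7% of all tested probes fell. Without either imatinib array 5 fell, and on the spike-in scale 27 did. These included Dnajc3, a cochaperone (-0.78), the thiol oxidase gene Ero1b (-0.74) and the disulfide isomerases Pdia3 (-0.63) and P4hb (-0.60). Igj, whose product joins antibody units in the same compartment, had a lower difference (-0.87) than any of these 4. Over all lists 32 genes rose and 53 fell, against 21 and 17 without imatinib replicate 1 and 21 and 19 without imatinib replicate 2. Of 10 tested receptors and transporters of immunoglobulin, 5 rose and 5 fell, against 18.7% higher and 23.7% lower among all tested probes. One of the rises, Pigr, was read from a probe with a repeat over 33 bases, so its target is uncertain. The IgM receptor Fcmr rose by 2.53 and the signalling chain Fcer1g by 2.45, while Fcgr4 fell by 1.93 (difference -1.25 with normexp) and Fcrl1, a Fc receptor-like protein of B cells, by 1.57.

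**Figure D5:**
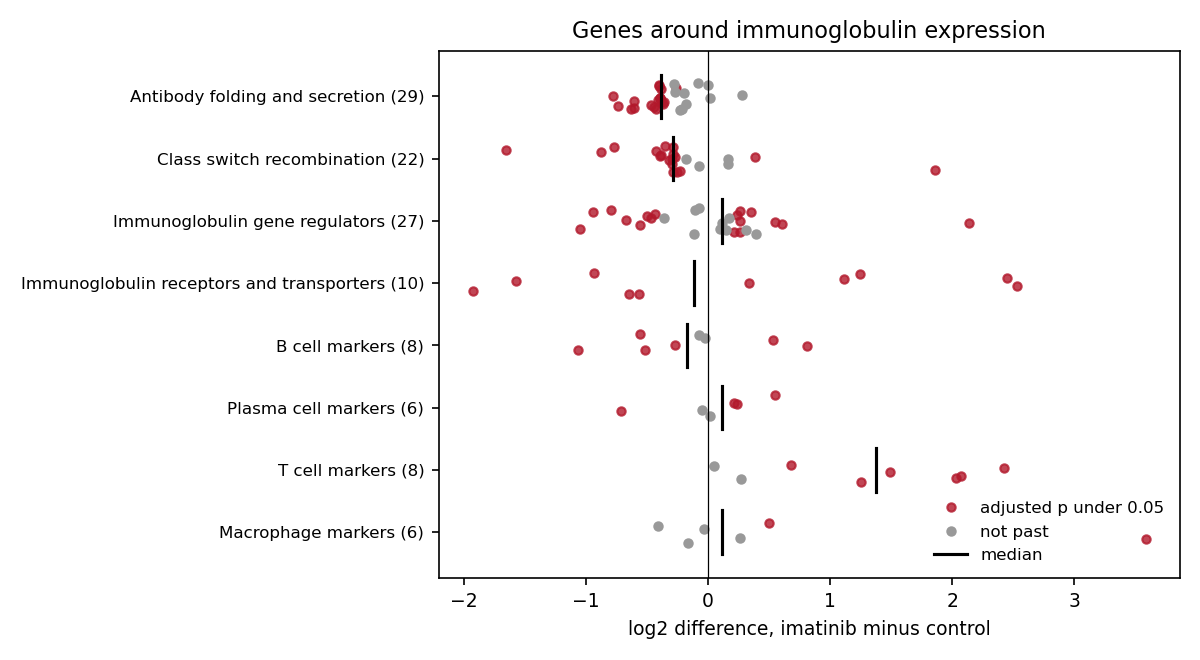
Log2 difference, imatinib minus control (horizontal axis), of tested genes in 8 lists, red at an adjusted p under 0.05 and grey otherwise, with black lines at list medians. The antibody folding genes gather below 0 (median -0.39), the T cell markers lie above 0 (median 1.37), and the regulators spread to both sides (median 0.12).

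Markers of the cells in these cultures moved beside the members. Each marker count, here and in the next paragraph, is to be read against 18.7% higher and 23.7% lower among all tested probes. Of 8 B cell markers, 2 rose and 4 fell (median -0.17), or 1 and 1 without either imatinib array. Cd22 fell by 1.06 and Blk rose by 0.81, while the summed scaled signal of the list was 252 and 262 times the 75th percentile with imatinib, against 295 and 275 in control. Of 6 plasma cell markers, 3 rose and 1 fell (median 0.11); none rose without imatinib replicate 1, and 1 rose without each of the other arrays in turn. Xbp1, a driver of secretion, rose by 0.55 and the receptor gene Tnfrsf17 fell by 0.71. Xbp1 lost its call on the spike-in scale and without imatinib replicate 1, and Prdm1 (0.24) and Irf4 (0.22) passed in 6 of 14 alternatives. Their summed signal was 277 and 277 with imatinib, against 233 and 237 in control. Most of that gap was Xbp1, at 125 and 117 with imatinib against 83.7 and 81.4 in control, and Sdc1 and Mzb1 did not pass. With median centring 1 of the 6 rose and 1 fell, and on the spike-in scale none rose and 2 fell (median -0.15).

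Of 8 tested T cell markers, 6 rose and none fell (median 1.37), with sums of 50.1 and 50.1 under imatinib and 25.6 and 25.1 in control. Cd8a rose by 2.42 and Cd3g by 2.07, while Cd4 (0.05) and Cd247 (0.27) did not pass. Of 6 tested macrophage markers, 2 rose, Adgre1 by 3.59 (2.92 with normexp) and Cd68 by 0.50 (past in 7 of 14 alternatives), with sums of 5.61 and 5.91 under imatinib and 3.76 and 3.69 in control. C1qa and C1qc were below the filter for testing. Of 5 neutrophil markers, 3 rose and 1 fell, while their summed signal was lower, at 2.86 and 3.17 with imatinib against 3.78 and 3.51 in control. Ly6g, the brightest of them, fell by 0.60, with log2 signals of 0.75 and 0.90 with imatinib against 1.45 and 1.41 in control. S100a8 rose by 3.24 (1.38 with normexp), S100a9 by 1.95 (0.53 with normexp) and Mpo by 0.94, at far lower signals. Of 4 NK cell markers, only Gzma was tested and rose by 0.49 (past in 9 of 14 alternatives, and not with median centring, on the spike-in scale or without either imatinib array). Of 4 erythroid markers 2 were tested and Hba-a1 rose by 0.61. The part of these shifts in the differences of the immunoglobulin probes was not tested.

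Probes whose 4 values ran closest to each changed member, after each probe's own mean was subtracted, were taken from 17549 probes with gene symbols. Nearest to Igh-VJ558 were Dkk3, Mfap5 and Sytl3, with root mean square differences of 0.38, 0.49 and 0.50 on the log2 scale. Their distances were far larger than those of Igj, nearest to which were Cd82, Tle1 and Dnajb3 (0.015, 0.020 and 0.024). Nearest to Ighg were Map7, Cdca8 and Tmcc3, and nearest to Vpreb1 were Emp2, Slc18a1 and Golgb1. With 4 arrays such likeness reflects little more than a similar difference between the groups.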

How the data were processed

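RNA of cultured mouse splenocytes was hybridised to 4 Agilent 1-colour (Cy3) arrays, 2 with imatinib and 2 without. Scanner output was deposited as fluorescence intensity for every spot, which the authors extracted with Agilent Feature Extraction, per the file headers. The authors' deposited table holds log2 values; after subtraction of a constant per array it lay within 0.01 of the log2 processed signals for 99.9% of probes. Its column medians were -3.99 (imatinib 1), -3.92 (imatinib 2), -4.10 (control 1) and -4.17 (control 2). The genome build of the files is not given in the sources used here.

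Control spots and spots marked as outliers were left out, spots of a probe were averaged as log2 processed signal, and the array's 75th percentile over probes was subtracted (646.5, 629, 678 and 782 processed signal units for imatinib 1, imatinib 2, control 1 and control 2). Between 24982 and 26737 probes per array were well above background, and no spot was saturated. All arrays lay on 1 slide, imatinib at positions 2 and 4 and control at positions 1 and 3. Probes were tested where both arrays of a group, imatinib or control, were well above background; 62 were left out for outlier marks. Groups were compared with limma 3.58.1 in R 4.3.3 (2 residual and 2.06 prior degrees of freedom), tested on simulated data. The smallest p of an exact permutation test at this size is 0.333. The number of arrays limits the precision.

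Members and lists were chosen with earlier results of these data known. Named besides all members are the 3 other immunoglobulin probes that rose most and the 3 that fell most, up to 4 genes a list by size, the 3 nearest profiles, and genes marked as chosen after their values were seen. Cd79a, Cd79b, Rag1, Rag2, Igll1, C1qa, C1qc, Cd4, Cd247, Sdc1, Mzb1 and Pigr were named as list members outside that rule. Some genes that the rule would give are not reported here. Probe names were matched to RefSeq by accession (26055), symbol (3195) or synonym (930). Alternatives were 3 scalings, normexp, other filters, the deposited values, another variance model, the replicate block and leaving out each array. Deviations of same-numbered arrays correlated at -0.07. That shows no strong shared deviation, but does not settle whether the numbers pair the samples.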

Additional observations from a re-analysis of the deposited data

How the results depend on the processing

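Of the 7 tested member probes, Igh-VJ558 and Igj kept their direction and call in all 14 alternatives, and Ighm passed in none; no called member reversed. Spike-in scaling, which shifted the median of all tested probes to -0.28, gave -0.33 for Igkc and -0.27 for Vpreb3, both then past the threshold, and 5 members lower. Under it 10 other immunoglobulin probes rose and 92 fell (main 21 and 56), 2802 of all probes rose and 11738 fell (main 4737 and 6016), and 21 list genes rose (main 32). Median centring (shift -0.19) gave 13 other immunoglobulin probes higher and 9251 of all probes lower. With no filter on dim probes, Vpreb1 (0.65) no longer passed, 0 members rose, 11 other immunoglobulin probes rose and 22 fell, 2812 of all probes rose and 2374 fell, and 21 list genes rose and 24 fell (main 53). With trend and robust fitting 32 other immunoglobulin probes rose. With the replicate block, Vpreb1 (0.65, adjusted p = 0.058) no longer passed, 0 members rose, 36 other immunoglobulin probes fell and 3958 of all probes fell; it changed no other member's call. Whether the numbers pair the samples is not stated in the labels, so the block stands as an alternative to the main fit. The cause of these shifts was not tested.

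Leaving out 1 array at a time left 1 array in a group, assumed to vary like the other. Such a fit has fewer residual degrees of freedom, so a lower count of calls does not by itself show dependence on 1 array. Differences then ranged from -3.68 to -3.23 for Igh-VJ558, -0.53 to -0.46 for Ighg, -0.94 to -0.80 for Igj and 0.49 to 0.80 for Vpreb1. They ranged from -0.21 to 0.27 for Ighm, -0.19 to 0.07 for Igkc and -0.01 to -0.00 for Vpreb3. Between 0 and 1 members rose and 2 and 3 fell. Between 10 and 15 other immunoglobulin probes rose and 11 and 39 fell, 2377 to 4560 of all probes rose and 1704 to 4425 fell, and 21 to 27 list genes rose and 17 to 39 fell. The regulator, plasma cell and macrophage list medians (0.12, 0.11 and 0.11) were -0.06 each under median centring and -0.15 each on the spike-in scale.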
